A study of Mus musculus with 5 samples.

Results

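The cells described here are the Dntt-positive cells of the LMPP library, 621 of its 8033 cells past the barcode filter and of 42104 such cells in all 5 libraries. A cell was a member when it held 3 or more UMIs (unique molecules) of Dntt and fewer than 2 UMIs of Il7r and Ebf1 together. Measured values of Dntt, Il7r and Ebf1 therefore chose the members, and their levels below are descriptions with no test. The members were compared with LMPP cells that held no Dntt UMI, paired 1 to 1 by the nearest total UMI count. These paired cells had no bound on Il7r and Ebf1, and 7 of them held 2 or more UMIs of Il7r and Ebf1 together.

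All libraries came from bone marrow of WT Balb/C mice aged 8 to 12 weeks, enriched for c-Kit, stained with lineage antibodies and sorted before droplet sequencing of the 3′ ends of poly-A RNA. Lymphoid-primed multipotent progenitors (LMPP; 1 library) were gated as lineage-negative cells with c-Kit, Sca-1, CD34 and Flt3 on the surface. Cells of the same stain without Sca-1 but with CD34 were divided by CD16/32 into common myeloid progenitors (CMP, low; 1 library) and granulocyte-monocyte progenitors (GMP, high; 3 libraries, called biological replicates by the series). The number of mice pooled into each library is not given in the sources used here.

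Dntt encodes terminal deoxynucleotidyl transferase, the polymerase that adds bases without a template at the joints of rearranging antigen receptor genes. Its RNA appears in lymphoid-primed progenitors ahead of the recombinase genes Rag1 and Rag2 and of the commitment genes Il7r (the interleukin 7 receptor) and Ebf1 (a B cell transcription factor). Flt3 ligand signalling, the chromatin organizer Satb1 and the receptor Notch1 all act in early lymphopoiesis.

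The LMPP library held 93770259 UMIs over 8116 deposited barcodes, with a median of 9605 per kept cell. Members were deeper, with a median of 16354 UMIs against 8386 in the 5334 LMPP cells without Dntt. After pairing the medians were 16354 and 16339, and the largest gap within a pair was 11.9% of the member's total. The 621 members summed to 11159183 UMIs and their partners to 11078075. Barcodes shared with another library numbered 5 among the members. With 1 LMPP library there is no replicate of the contrast and no p-value. All intervals are exact 95% intervals that cover counting error only (Poisson for levels, binomial for ratios, Clopper-Pearson for shares).

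Members made up 7.73% of LMPP cells (interval 7.16 to 8.34). The same gate took 930 of 7312 CMP cells, or 12.7% (interval 11.96 to 13.5), and 3, 7 and 3 cells of the GMP libraries, a mean of 0.0475% ± 0.0209 (SD, n = 3). At least 1 Dntt UMI was found in 33.6% of LMPP cells, 43.1% of CMP cells and 0.457% ± 0.136 (SD, n = 3) of GMP cells. A further 305 LMPP cells had 3 or more Dntt UMIs but fell outside through Il7r and Ebf1. Dntt ranged from 3 to 66 UMIs per member, with a median of 5 and a 75th percentile of 9, so most members stood near the lower bound.

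**Figure D1:**
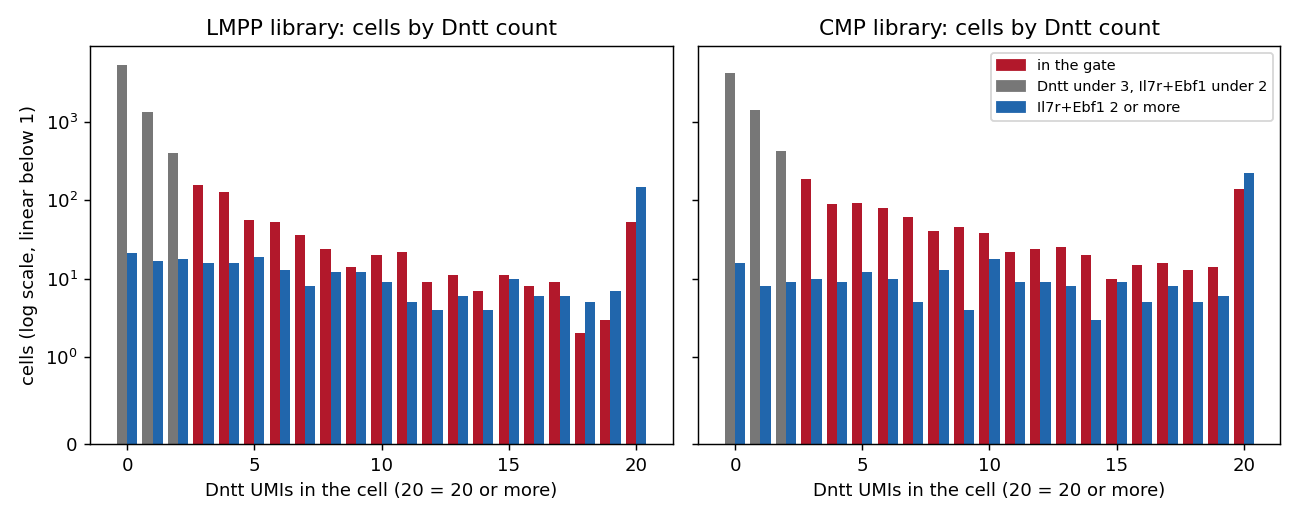
Cells (vertical axis, log scale, linear below 1) by their number of Dntt UMIs (horizontal axis, 20 standing for 20 or more) in the LMPP and CMP libraries, with the gated cells in red, cells under the Dntt bound in grey and cells with 2 or more Il7r and Ebf1 UMIs in blue. The gate begins on a continuous slope, with 398 LMPP cells at 2 Dntt UMIs and 155 at 3, and no gap separates members from the rest.

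The 398 cells just outside (2 Dntt UMIs) and the 155 just inside (3 UMIs) had 150 and 169 CPM (UMIs of the gene scaled to the summed UMIs of the group) of Flt3, 443 and 413 CPM of Hlf, and 94.8 and 121 CPM of Ighm. Some Dntt counts can come from free RNA in the droplets. Of 50 LMPP cells with 10 or more UMIs of the neutrophil granule genes Camp, Ngp and Ltf, 10.0% (interval 3.33 to 21.8) held a Dntt UMI at a median depth of 10883 UMIs, and 2 were members. Of 84 cells with 5 or more UMIs of the erythroid genes Klf1, Car1 and Gata1, which were deeper with a median of 25910 UMIs, 41.7% (31.0 to 52.9) held one, above the 33.6% of all LMPP cells, although Dntt stood at 33.7 CPM there and 178 CPM over all cells. After every cell was thinned to 5000 UMIs, a Dntt UMI was left in 23.6% of 6964 LMPP cells in 6.98% of 43 cells rich in those granule genes and in 16.5% of 79 cells rich in the erythroid genes. Free RNA, doublets and low expression in these cells were not told apart, so a single Dntt UMI in a cell is not read as expression.

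Flt3, Satb1 and Notch1, the markers set for the name, were all higher in members, and their UMIs were spread over most of the cells. Flt3, the cytokine receptor on which LMPP was sorted, ranged from 0 to 16 UMIs per member with a median of 3, against 0 to 11 with a median of 1 in the partners. It stood at 198 CPM (interval 189 to 206) in members and 90.3 CPM in partners, a ratio of 2.19 (2.03 to 2.36), and was detected in 90.2% and 65.4% of cells. Satb1 ranged from 0 to 15 UMIs with a median of 3 in members and from 0 to 11 with a median of 1 in partners. Its level was 178 CPM (170 to 186) against 65.7, a ratio of 2.71 (2.49 to 2.95). Notch1 ranged from 0 to 12 UMIs with a median of 1 in members and from 0 to 5 with a median of 0 in partners. Its level was 80.7 CPM (75.5 to 86.1) against 33.5, a ratio of 2.41 (2.13 to 2.73). Cell by cell the groups overlapped for all 3 genes. In the cells rich in neutrophil granule genes, Flt3 was found in 18.0%, Satb1 in 34.0% and Notch1 in 24.0%. In the deeper cells rich in erythroid genes the shares were 39.3%, 27.4% and 13.1%, at 20.2, 15.5 and 5.16 CPM.

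Ccr9, the chemokine receptor that guides progenitors to the thymus, had one of the largest ratios at a low level. It stood at 25.8 CPM in members and 1.72 CPM in partners, a ratio of 15.05 (9.46 to 25.4). Only 16.1% of members held a Ccr9 UMI, against 2.58% of partners, with up to 14 UMIs in a member. None of the 50 cells rich in granule genes held one, and it lay under the 50 CPM needed for a call. The annotated Ccr9 gene overlaps Lztfl1 on the opposite strand, which stood at 127 and 79.1 CPM; whether the counting used strand is not given in the sources used here.

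The markers lie on separate chromosomes of GRCm38 (mm10): Dntt at chr19:41029275-41059525, Flt3 at chr5:147330741-147400489, Satb1 at chr17:51736187-51833290 and Notch1 at chr2:26457903-26516663, the first on the plus strand and the others on the minus strand. Since the markers were all higher in the members, the 150 bases before a RefSeq start of each gene are shown (GRCm38.p6), 5′ to 3′ on the gene's strand. Capitals mark GGGAA, the core letters bound by Ikaros family proteins, and CANNTG, the E-box bound by E proteins, searched on both strands with no overlap between matches. For Satb1 the start is 1 of 5 in the table, the one at the end of the annotated gene. The only Notch1 start in the table lies inside the longer gene annotated by GENCODE, so its window is not upstream of the coordinates given above.
Dntt promoter (chr19:41029125-41029274): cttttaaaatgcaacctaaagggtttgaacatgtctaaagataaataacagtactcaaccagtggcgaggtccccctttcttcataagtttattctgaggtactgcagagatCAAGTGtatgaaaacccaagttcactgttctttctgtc
Flt3 promoter (chr5:147400490-147400639): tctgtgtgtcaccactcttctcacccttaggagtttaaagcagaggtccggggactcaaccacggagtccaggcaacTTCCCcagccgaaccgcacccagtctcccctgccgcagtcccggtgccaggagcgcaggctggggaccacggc
Satb1 promoter (chr17:51833291-51833440): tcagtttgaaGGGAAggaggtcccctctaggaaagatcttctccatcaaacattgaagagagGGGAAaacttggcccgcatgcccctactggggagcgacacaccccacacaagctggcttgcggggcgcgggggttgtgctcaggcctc
Notch1 promoter (chr2:26503823-26503972): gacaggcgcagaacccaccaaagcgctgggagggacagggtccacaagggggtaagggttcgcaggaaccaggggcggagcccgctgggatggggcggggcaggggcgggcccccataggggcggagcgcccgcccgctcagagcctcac
Dntt held 1 E-box and no GGGAA, Flt3 held 1 GGGAA and Satb1 held 2 without an E-box, and the window at the RefSeq start of Notch1 held neither. The share of all promoters was high for both motifs: of 32851 windows of that length in the RefSeq table, 38.9% held GGGAA and 47.7% held CANNTG, and a match describes these letters only.

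Over the 3226 genes with 50 CPM or more on either side, 13 were 2-fold or more higher in members (0.403% of genes tested) and 21 were 2-fold or more lower (0.651%), on log2 folds with 5 CPM added to each side. The median log2 fold over all tested genes was 0.02. Besides Flt3, Satb1 and Notch1, the higher genes were Ighv1-77, Ighv1-85, Wfdc17, Il12a, Ccl3, Bcl2l11, Ncf1, Ifi27l2a, Cd69 and Ttc13. Il12a, a subunit gene of the interleukin 12 family, stood at 65.8 and 18.3 CPM (ratio 3.59, 3.07 to 4.21). The chemokine gene Ccl3 stood at 196 and 65.1 CPM, and the early activation antigen gene Cd69 at 613 and 257 CPM. Bcl2l11, which encodes the death-promoting protein Bim, was at 54.0 and 16.5 CPM, whereas the survival gene Bcl2 was at 91.2 and 60.3 CPM. The oxidase subunit gene Ncf1 was at 82.2 and 28.6 CPM. Predicted genes annotated inside Satb1 on its own strand moved with it, for example C230085N15Rik at 38.8 and 14.7 CPM and 5830444F18Rik at 37.9 and 13.7 CPM, both chosen after their values were seen, and reads of unspliced Satb1 RNA cannot be told apart from theirs.

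These differences were broad. Each of the 13 higher genes was detected in more members than partners, by 17.9 to 44.6 percentage points (median 29.6), and the 5 members with most UMIs of a gene held 3.18% to 11.3% of its member UMIs. Il12a was found in 58.5% of members and 25.1% of partners, and Cd69 in 93.1% and 75.2%. The lower genes were different: the share of cells with a UMI differed by a median of -2.74 points over 19 of them (all but Ngp and Ap3s1, which the naming rule leaves out), and 4 were detected in a larger share of members than of partners.

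**Figure D2:**
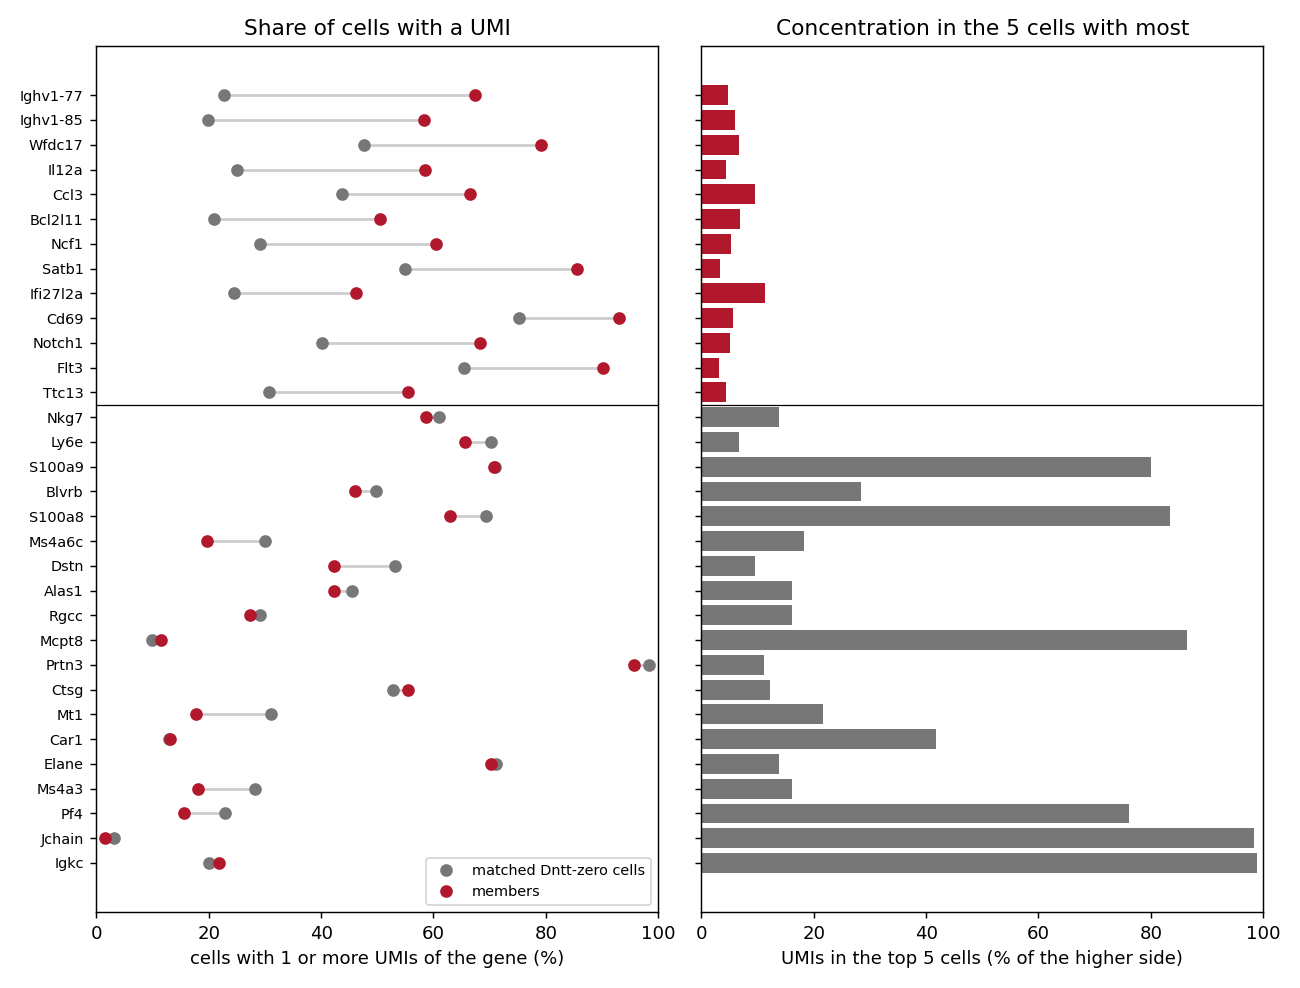
Left, the percentage of cells with 1 or more UMIs of each named gene that passed 2-fold, in members (red) and matched Dntt-zero cells (grey). Right, the percentage of that gene's UMIs held by the 5 of 621 cells with most, on the side where the gene was higher. Above the line, the 13 higher genes are detected in more members and hold 3.18% to 11.3% of their UMIs in 5 cells; below it, Igkc, Jchain, Mcpt8, S100a8, S100a9 and Pf4 have 76.2% to 98.9% of their partner UMIs in 5 cells.

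Among the 13 higher genes, a pair of immunoglobulin heavy chain segments had the highest ratios. Ighv1-77 (chr12:115861867-115862355) and Ighv1-85 (chr12:116000028-116000461), variable segments of the heavy chain locus, stood at 141 and 106 CPM in members and at 19.6 and 16.1 CPM in partners, ratios of 7.20 (6.24 to 8.33) and 6.60 (5.63 to 7.77). Together with Ighv1-78, named after its values were seen, these segments held 91.5% of the 3454 UMIs that members had over 185 Ighv genes. At least 1 UMI of the 3 was present in 77.9% of members and 37.4% of partners. Ighv1-77 was found in 6.00% of the 50 cells rich in granule genes and in 20.2% of the 84 deeper cells rich in erythroid genes, at 8.99 and 10.7 CPM. The segments belong to a multigene family of similar sequences, and reads of Balb/C mice were counted on the mm10 reference, which is of another strain, so which segment gave a read is uncertain.

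Ighm, the constant region gene of the heavy chain, showed how far 1 cell can carry a sum. Its summed level was lower in members, 187 against 256 CPM, while it was detected in 84.9% of members and 36.2% of partners, with a median of 3 and 0 UMIs. A single partner cell of 23537 UMIs held 2435 of the 2839 Ighm UMIs on that side. Without it Ighm stood at 187 CPM in members and 36.5 CPM in the other 620 partners, a ratio of 5.12 (4.60 to 5.71), a setting chosen after seeing the data. The same cell held 12386 of 12526 Igkc UMIs and 856 of 874 Jchain UMIs, both genes of antibody-secreting cells. Igkc then stood at 14.4 and 12.7 CPM and Jchain at 0.896 and 1.63 CPM, so the calls of both as lower rested on that cell.

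The other lower genes belonged mostly to granulocytic, erythroid, megakaryocytic and basophil programs. Elane, neutrophil elastase, stood at 234 CPM in members and 1705 CPM in partners, Prtn3 (proteinase 3) at 463 and 1907, and Ctsg (cathepsin G) at 134 and 664. Ms4a3, a gene of granulocyte-monocyte progenitors, was at 23.7 and 236 CPM, Car1 of the erythroid lineage at 16.8 and 142, the platelet chemokine gene Pf4 at 10.4 and 166, and the basophil protease gene Mcpt8 at 9.95 and 55.1. The shares of cells with a UMI moved far less, though not equally for all of these genes. The largest shift among the 19 named lower genes was -13.4 points, for Mt1 (17.7% of members and 31.1% of partners). Ms4a3 was detected in 18.0% and 28.2%. Elane was detected in 70.2% of members and 71.2% of partners with a median of 1 UMI in both, and Car1 in 13.04% and 12.88%. For Pf4, 5 partners held 76.2% of the partner UMIs, and for Mcpt8 86.4%.

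Among the partners, 105 of 621 cells (16.9%) were rich in genes of another lineage, against 7 members (1.13%). By list, 6 of 14 granulocytic and monocytic genes tested were lower, against 0.651% of all genes tested (median log2 fold -0.87, summed 3848 and 9250 CPM), 3 of 4 genes of maturing neutrophils, 2 of 3 erythroid, 1 of 4 megakaryocytic and 1 of 3 basophil and mast cell genes, and none of any of these lists was higher. The largest set of such cells, 68 partners and 5 members, had 5 or more Ms4a3 UMIs, followed by 22 partners and 1 member with 5 or more UMIs of Klf1, Car1 and Gata1, and 11 partners and no member with 10 or more Pf4 UMIs. The sort stained for lineage antigens including Gr-1, CD11b and Ter-119. With such cells left out on both sides, the rest were paired again. The largest gap in depth within a pair was then 26.3%, against 11.9% in the main pairing. In these pairs 11 genes were higher and 1 was lower. None of the 21 lower genes was still called, and the 1 was Gng11 at 34.8 and 78.6 CPM. Of 19 named lower genes, 1 stayed past 2-fold without a call. This was Ms4a6c, with a log2 fold of -1.17 against -1.28 with all cells. At 19.3 and 49.6 CPM it fell just under the 50 CPM needed. Of the 13 higher genes 10 remained, and Ighm joined them with a log2 fold of 1.98. Flt3 fell from 1.09 to 0.78, Notch1 from 1.15 to 0.92 and Ifi27l2a from 1.25 to 0.97, all short of 2-fold, while Satb1 moved from 1.37 to 1.08. These thresholds were chosen after the data were seen and use some of the lower genes themselves, which lowers those genes' differences by construction.

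**Figure D3:**
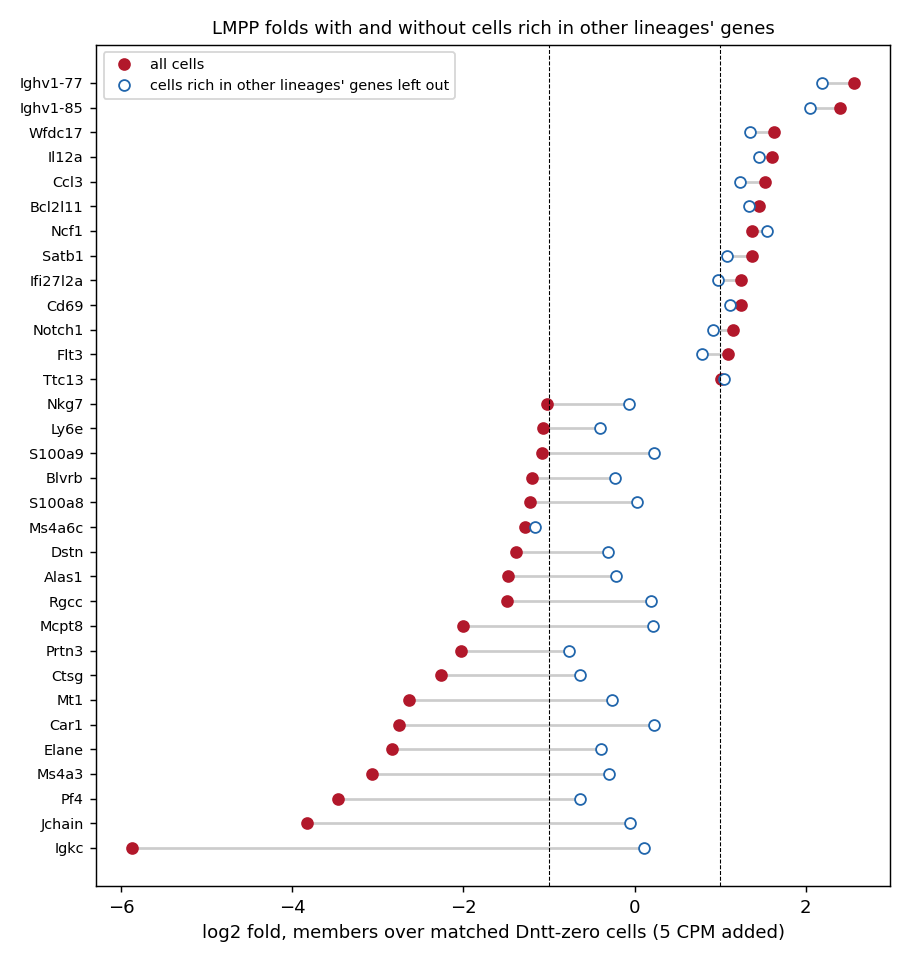
Log2 fold of each named gene past 2-fold (members over matched Dntt-zero cells, 5 CPM added) with all cells (filled) and with cells rich in genes of other lineages left out on both sides (open); dashed lines mark 2-fold. The higher genes keep most of their fold, from 0.78 for Flt3 to 2.19 for Ighv1-77, whereas most lower genes move toward 0, Igkc from -5.87 to 0.11 and Elane from -2.84 to -0.39. Ms4a6c moves little, from -1.28 to -1.17.

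Lists of genes of early lymphoid function, written with earlier results of these data known, held few calls. Of 22 early lymphoid genes, 14 were tested and 4 were higher, against 0.403% of all genes tested. These were Il12a and the markers set for the name, Flt3, Satb1 and Notch1. The median log2 fold of the 14 was 0.69 against 0.02 over all tested genes, and the 1 lower was Jchain. Mef2c, a transcription factor of lymphoid priming, stood at 711 and 445 CPM. Of 32 lymphoid regulators, 21 were tested and only Satb1 passed, with a median of 0.21. Tcf4, an E protein gene, stood at 258 and 137 CPM without passing 2-fold. Of 21 genes of the Notch pathway, 5 were tested and Notch1 alone passed. The coactivator gene Maml3 was at 138 and 76.6 CPM and the glycosyltransferase gene Mfng, which modifies Notch receptors, at 81.5 and 65.5 CPM.

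Genes of committed lymphocytes were at low levels in the members, which the rule sets in part. It left out 305 LMPP cells with 3 or more Dntt UMIs through Il7r and Ebf1, and Cd79a stood at 83.5 CPM and Rag1 at 38.5 CPM there. None of 18 B cell genes reached 50 CPM. Their summed level was 80.5 CPM in members and 64.2 CPM in partners, most of it from Cd79b at 32.0 and 29.2 CPM and Cd72 at 29.6 and 23.9 CPM. These were detected in 42.7% and 36.7% of members and in 36.4% and 30.6% of partners. Cd22 and Il2ra had no UMI in any member. Of 18 T, NK and innate lymphoid cell genes, 7 had no UMI in members (Cd3e, Cd3g, Tcf7, Bcl11b, Gzma, Tbx21 and Il2rb), and the 1 tested was Nkg7, lower at 74.7 and 157 CPM and detected in 58.6% and 61.0% of cells. Nkg7 is also expressed by myeloid progenitors. Lck, a kinase gene of T cell signalling, stood at 20.1 and 7.40 CPM and was found in 27.5% of members and 11.6% of partners. Of 18 genes for V(D)J recombination and end joining, the process in which the Dntt product works, 2 were tested and none passed. Rag1 was found in 18 members (2.90%, interval 1.73 to 4.54) and 3 partners (0.483%). Rag2, also at a low level, was found in 8.37% of members and 0.966% of partners, at 5.47 and 0.542 CPM (61 and 6 UMIs). In the same gate in CMP, Rag2 was found in 6.88% of gated cells and 0.538% of their matched cells. Prkdc was at 23.2 and 17.8 CPM and Trp53bp1 at 40.0 and 30.8 CPM.

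Stem cell and multipotent genes were still widely detected in the members, several of them at lower levels. Hlf, a transcription factor of hematopoietic stem cells, was detected in 88.7% of members and 90.2% of partners, with medians of 4 and 6 UMIs and levels of 316 and 420 CPM (ratio 0.75, 0.72 to 0.79). Of 26 such genes, 15 were tested and none passed, with a median log2 fold of -0.25. The largest folds on this list were those of Gng11, a G protein subunit gene, at 34.9 and 70.0 CPM (ratio 0.50, 0.44 to 0.56), and of the transcription factor gene Gata2 at 26.9 and 51.2 CPM (ratio 0.53, 0.46 to 0.61). Mecom stood at 78.4 and 87.0 CPM and Meis1 at 197 and 188 CPM. Cd34 was at 434 and 295 CPM and Kit at 132 and 143 CPM. These levels depended on the partners rich in other lineages' genes. With such cells left out on both sides, a setting chosen after seeing the data, Hlf stood at 320 and 514 CPM (log2 fold -0.67). Mecom was then at 79.7 and 110 CPM, Meis1 at 199 and 230, Kit at 133 and 164 and Cd34 at 439 and 367. Most members thus held UMIs of Hlf, Meis1 (90.7%) and Cd34 (97.3%) beside those of Dntt.

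Mpo, the myeloperoxidase of the granulocytic lineage, moved in opposite directions by the sum and by the cell. Its summed level was 528 CPM in members and 1052 CPM in partners. At least 3 Mpo UMIs were held by 69.2% of members (interval 65.4 to 72.9) and 51.9% of partners (47.8 to 55.8), with medians of 6 and 3 UMIs. The highest partner held 345 Mpo UMIs and the highest member 113. With cells rich in other lineages' genes left out, the log2 fold was -0.12. Irf8, a regulator of monocyte, dendritic and B lineages, was detected in 37.4% of members and 19.5% of partners at 43.7 and 38.7 CPM.

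Cell cycle genes differed little between members and their partners of matched depth. Over all 5334 LMPP cells without Dntt, which were shallower, Mki67 stood at 307 CPM and Top2a at 338 CPM. In members they stood at 557 and 586 CPM, so the small difference holds for matched depth only. At least 2 UMIs of Mki67 and Top2a were present in 75.7% of members and 74.6% of partners. None of 25 S phase or 25 G2M genes tested passed 2-fold, with median log2 folds of 0.15 and -0.05. Immediate early genes, which respond to cell handling as well as to signals, were at 11644 and 11060 CPM in sum, and none of 17 tested passed. Mitochondrial genes took 1.26% of member UMIs and 1.37% of partner UMIs.

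Within the LMPP library the markers also rose with the Dntt count left after thinning. Thinned counts are lower than the raw counts of the gate, so the bins under 3 also hold members and do not lie below its bound. With each cell thinned to 5000 UMIs, cells with under 2 UMIs of Il7r and Ebf1 were grouped by 0, 1, 2, 3 to 4 and 5 or more Dntt UMIs (5279, 920, 201, 141 and 81 cells). Flt3 went from 116 CPM through 156, 171 and 209 to 249.4 CPM, and Notch1 from 41.5 through 51.3, 91.5 and 96.5 to 106 CPM. Satb1 went from 79.1 through 119, 170 and 189 to 314 CPM, and Ccr9 from 4.39 through 11.1, 31.8 and 52.5 to 69.1 CPM. Ighm went from 65.4 to 348 CPM and Hlf from 603 to 207 CPM in the same order. Kit went from 158 to 121 CPM, and Mpo showed no such order, with 395 CPM at 0, 340 CPM at 2 and 501 CPM at 5 or more. Counting intervals of neighbouring bins often overlapped among the last 3, as the plot of levels by Dntt count shows. Over these bins the level rose at every step in 211 of 3182 genes with 50 CPM or more in the last bin (6.63%), and fell at every step in 141 of 2935 with that level in the first (4.8%). Of these, 52 and 25 did the same in CMP, where 200 of 2831 rose and 200 of 2800 fell.

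**Figure D4:**
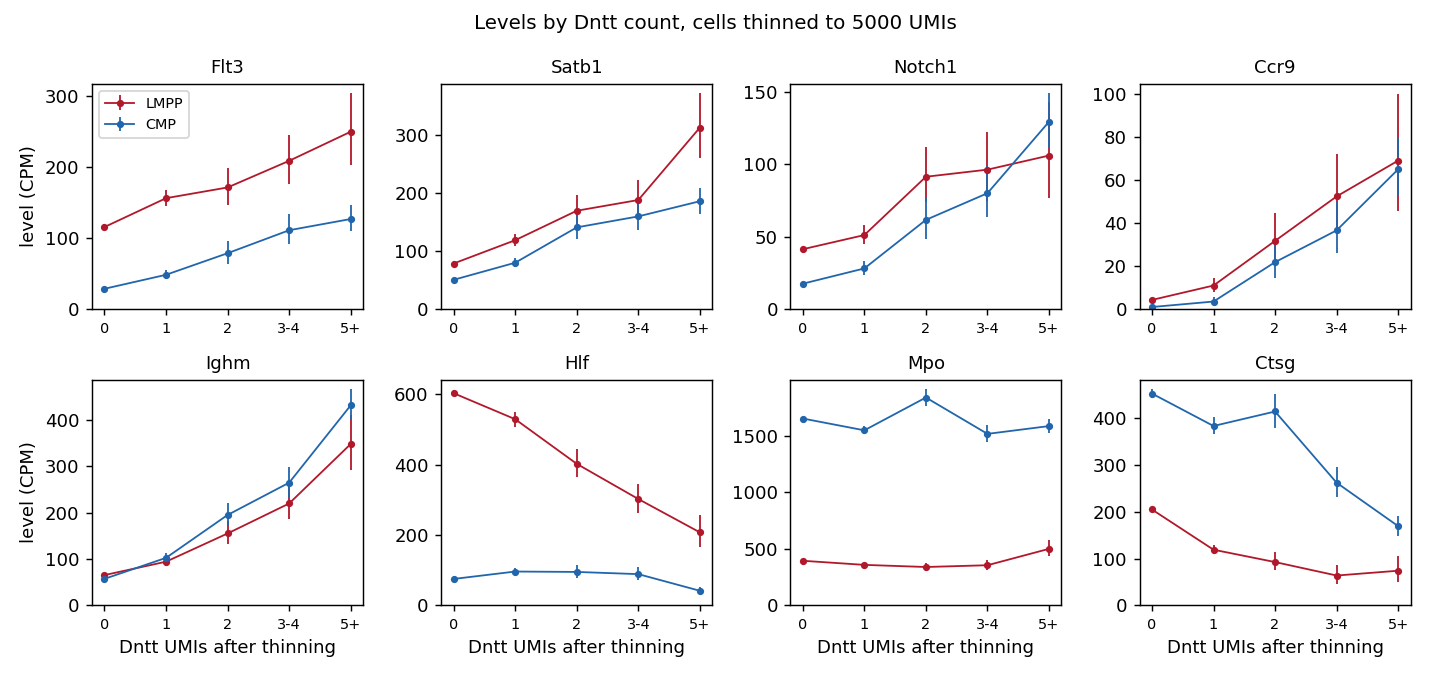
Level in CPM (vertical axes, exact 95% Poisson intervals) of 8 genes by the number of Dntt UMIs left after thinning each cell to 5000 UMIs, in LMPP (red) and CMP (blue). Flt3, Satb1, Ccr9 and Ighm climb at each step in both libraries, Hlf falls from 603 to 207 CPM in LMPP, and Mpo shows no steady order.

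The members were not uniform. Members without Mpo (under 3 UMIs) had 78.2 CPM of Ccr9 and 384 CPM of Hlf, and those with Mpo had 17.3 and 278 CPM, among 607 members thinned to 5000 UMIs. Ighm stood at 239 and 185 CPM and Il12a at 118 and 65.9 CPM in the same order, whereas Dntt differed little (503 and 483 CPM). Members with fewer than 2 UMIs of Mki67 and Top2a had 678 CPM of Dntt, 276 CPM of Satb1 and 518 CPM of Cd34, against 433, 169 and 407 CPM in the others. All 18 members with a Rag1 UMI also had an Hlf UMI, as did 89.1% of the other 589. Those 18 had 833 CPM of Dntt and 411 CPM of Ighm, against 478 and 195 CPM in members without Rag1. Subsets were cut on UMI counts, so depth differs between them: members with 3 or more Mpo UMIs had a median of 19423 UMIs. Members with 2 or more UMIs of Mki67 and Top2a had a median of 19173, against 16354 for all members. The gate asks for 3 raw Dntt UMIs, so a shallower member needs a larger share of Dntt to enter. Differences in Dntt, and in genes that rise with it, between subsets of unlike depth can thus follow from the rule.

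The 361 LMPP cells with 2 or more UMIs of Il7r and Ebf1, of which 305 had 3 or more Dntt UMIs, differed in the genes of commitment. Rag1 stood at 35.1 CPM there and 1.79 CPM in members, Cd79a (a B cell receptor subunit) at 84.4 and 0.896 CPM, and Blnk (an adaptor of that receptor) at 60.3 and 4.93 CPM. Dntt was at 1491 and 457 CPM. Satb1 was at 191 (interval 180 to 202) and 178 CPM (170 to 186), intervals that overlap. Flt3 was lower in the Il7r or Ebf1 cells, 162 against 198 CPM, as were Hlf (147 and 316), Mecom (29.1 and 78.4), Cd34 (273 and 434) and Kit (72.2 and 132). The heavy chain segments were higher there, Ighv1-77 at 266 against 141 CPM. On either side of the Il7r and Ebf1 bound, 99 members with 1 UMI had 614 CPM of Dntt and 240 CPM of Hlf, and 57 cells just outside with 2 UMIs had 806 and 112 CPM.

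The same contrast was made in CMP, a library the rule did not use, between 930 gated cells and 930 matched CMP cells without Dntt. Of 3029 genes tested there, 27 were higher (0.891%) and 27 lower (0.891%). The lists shared 8 higher genes, 61.5% of the LMPP list and 29.6% of the CMP list, and 8 lower genes, 38.1% and 29.6%. All 9 of the LMPP higher genes tested in CMP, and all 12 of the lower ones, had the same sign there. The share with the same sign over all genes tested in both was not counted, so these counts have no background beside them. The log2 folds of the libraries had a Pearson's r of 0.805 across 2793 genes tested in both; genes are not replicates, and no p is given. Flt3 was at 106 and 25.3 CPM in gated and matched CMP cells, Satb1 at 153 and 47.7, Notch1 at 77.4 and 16.7 and Ighm at 291 and 65.3. Hlf was detected in 40.1% of CMP gated cells and 37.4% of their partners, far below the 88.7% of members, and 93.7% of CMP gated cells held 3 or more Mpo UMIs. Library and sort gate cannot be told apart in these differences between LMPP and CMP.

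**Figure D5:**
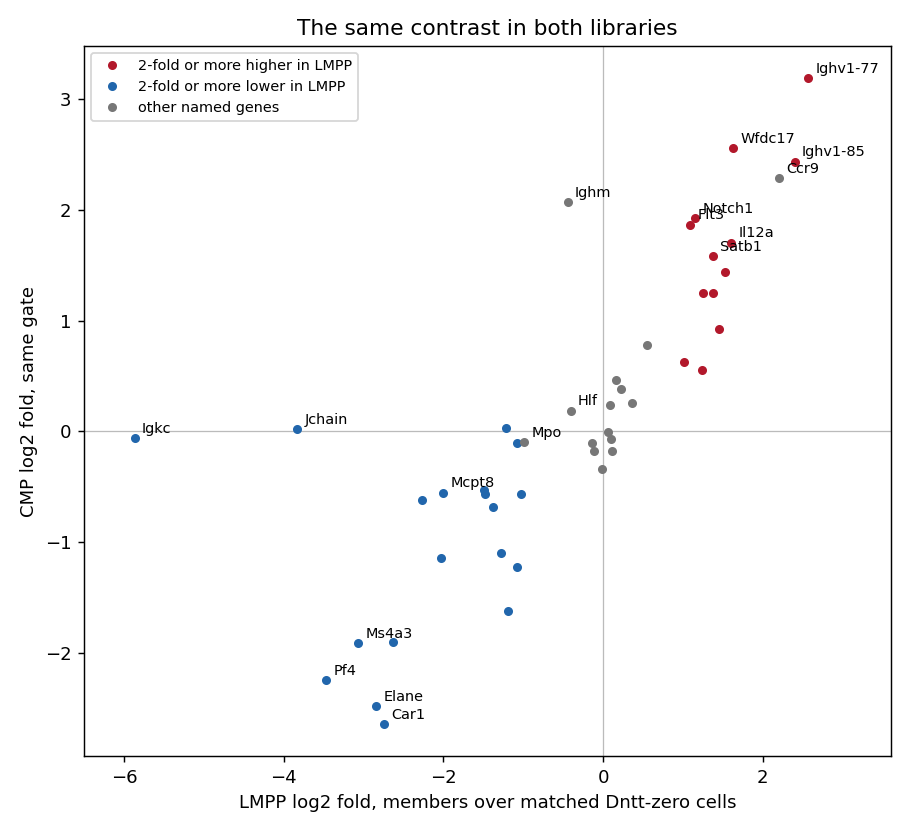
Log2 folds of named genes (gated over matched Dntt-zero cells, 5 CPM added) in LMPP (horizontal) and CMP (vertical), with genes past 2-fold in LMPP in red (higher) or blue (lower). Flt3, Satb1, Notch1, Wfdc17 and the Ighv segments are high in both, whereas Igkc and Jchain lie near 0 in CMP and Ighm is at -0.44 in LMPP and 2.07 in CMP.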

How the data were processed

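The deposited files give a whole-number UMI count for each gene in each barcode. Per the file headers they were written by Cell Ranger 6.1.1, whereas the submitters' processing notes name Cell Ranger 3.1.0, Seurat 3.1.1 and mm10. How the authors kept barcodes is not given in the sources used here. The 55450 gene identifiers all match GENCODE M21.

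A barcode was used if it had at least 500 genes and 1000 UMIs with at most 10% of them mitochondrial, which dropped 83 in LMPP and 77 in CMP. Doublet calls were kept: the automatic threshold of scanpy 1.11.5 on simulated doublets found 0 in LMPP and 1 in CMP, so the 522 highest LMPP scores (0.8% per 1000 barcodes) served as an alternative. These took in 58 of the 621 members, against 522 of all 8033 LMPP cells. UMIs were summed over members and over matched cells and scaled to CPM. A gene was called at a fold of 2 after adding 5 CPM to both sums, given 50 CPM in the higher group, and Dntt, Il7r and Ebf1 were left out. Thinning to 5000 UMIs kept 607 members. Calculations used numpy 2.4.6, scipy 1.17.1 and pandas 2.3.3, and were tested on simulated data.

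Named genes were the 15 highest and 15 lowest folds past the call (predicted genes left out), a panel, and from each list the 2 largest folds at 20 CPM or more and the 2 highest levels. Ighv1-78, Blnk, Cd79a, Lztfl1, Rag2, genes without a UMI and genes that define cells left out were added after their values were seen. The members and lists were chosen with earlier results of these data known. Alternatives changed the Dntt bound, the comparison cells, the scaling, the cells kept and the call's settings.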

Additional observations from a re-analysis of the deposited data

How the results depend on the processing

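The share of LMPP cells in the gate was 12.7% at 2 Dntt UMIs, 4.20% at 5, 5.22% at 3 per 10000 UMIs, 6.50% with Il7r and Ebf1 at 0 and 4.48% when cells were thinned first; all deposited barcodes and removal of doublet calls kept it within its interval. The 13 higher genes became 22 without ribosomal and mitochondrial genes in the totals, 23 in the 151 pairs without cells that had 2 or more Mki67 and Top2a UMIs, 33 at 20 CPM and 41 with no minimum, and the cause was not tested for the second. The 21 lower genes became 37 at 20 CPM, 64 with no minimum and 1 without cells rich in other lineages' genes. All 13 higher genes kept their sign in all 15 settings run per gene, and 5 were called in each. Flt3 was called in 10 of them, Ttc13 in 11 and Notch1 in 12. The lowest log2 folds were 0.43 for Wfdc17 and 0.53 for Ccl3, against 1.63 and 1.52 in the main contrast. Of 19 named lower genes 13 kept their sign and none was called in each.

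The remaining signs turned as follows. Without cells that had 2 or more Mki67 and Top2a UMIs, the log2 fold was 0.17 for S100a9, 0.089 for S100a8, 0.064 for Car1 and 0.087 for Igkc. Without cells rich in other lineages' genes it was 0.23 for S100a9, 0.027 for S100a8, 0.19 for Rgcc, 0.21 for Mcpt8, 0.22 for Car1 and 0.11 for Igkc. Igkc was also at 0.137 with Dntt per 10000 UMIs, 0.131 without doublet calls and 0.139 without the cell rich in Igkc, each a setting in which that cell is not a partner. Irf8, at 0.16 with all cells, went to 2.26 without cells that had 2 or more Mki67 and Top2a UMIs, and the cause was not tested. Ighm ranged from -0.87 to 2.58. Removal of the cell rich in Igkc and of cells rich in other lineages' genes was chosen after seeing the data.

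No paired analysis was possible because LMPP and CMP have 1 library each. A single library sets the limit on every contrast, since intervals cover counting error and not the spread between animals. Genes under 50 CPM were not called.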

Other observations

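Beyond the lymphoid and myeloid lists, few receptor and homing genes reached the 50 CPM needed for a call. Of 30 cytokine receptor genes 8 were tested and Flt3 alone passed 2-fold, with a median log2 fold of 0.21. Il1r1, the interleukin 1 receptor gene, stood at 28.4 CPM in members and 14.6 CPM in partners, and at 19.002 and 3.86 CPM in the CMP contrast. Of 25 homing and adhesion genes 8 were tested and none passed. The list also holds Ccr9, described above, which was under that level, and Cd9, a tetraspanin gene, at 15.9 and 29.7 CPM. Emb, an adhesion gene, was at 225 CPM in members and 153 CPM in partners. Of 20 dendritic cell genes 4 were tested and none passed, and their summed level was 754 CPM in members and 536 CPM in partners, with Tcf4 at 258 and 137 CPM. The list holds Tcf4, Ccr9 and Irf8, which are described above.

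The CMP contrast also depended on cells rich in other lineages' genes. Of the CMP partners 239 (25.7%) met those thresholds, against 32 gated cells (3.44%). Without them 15 of the 27 higher genes and 16 of the 27 lower genes remained called, with no others added, and the largest gap in depth within a pair was 30.6%. Flt3 was then at a log2 fold of 1.54, Satb1 at 1.31, Notch1 at 1.78 and Ighm at 1.81.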
